A study of Mus musculus with 2 samples.

Results

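Wnt proteins are secreted, lipid-modified ligands that bind Frizzled receptors and the co-receptors Lrp5 and Lrp6. In the canonical branch this stops the Axin and Apc complex from degrading beta-catenin, which then acts with the TCF/LEF factors on target genes such as Axin2 and Sp5. In mouse embryonic stem (ES) cells, beta-catenin relieves repression by Tcf7l1, and the promoters of many Wnt genes carry the histone mark that Polycomb repressive complex 2 (PRC2) deposits. Eed is a core subunit of PRC2.

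The 50 genes described here are Wnt ligands, Frizzled and Lrp receptors, secreted antagonists, R-spondins, the acyltransferase Porcn, beta-catenin, Axin1, TCF/LEF factors and feedback targets. They were found as probe sets whose only gene symbol in the platform annotation is a member. This gave 97 of the 45101 probe sets and 49 of 18193 genes, and 30 of the 49 had more than 1 probe set. Tcf7, which encodes a further TCF factor, matched none and has no signal here.

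Signals came from 2 Affymetrix MOE430 2.0 arrays, of which 1 carried RNA of mouse ES cells with a constitutive knockout of Eed (Eed KO) and 1 RNA of the ES cells serving as its control. The labels give no parent line, strain, culture condition, number of clones or design of the disruption. With 1 array per group there was no replicate and no test, so every difference is between these 2 arrays. In bulk RNA, fewer cells of a type and less RNA per cell cannot be told apart.

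MAS5 signals, which are background-corrected brightness values per probe set on a linear scale, were used as deposited. For each gene the probe set brightest on average on the log2 scale was read. Signals under a floor of 61.3, the 40th percentile of both arrays, were raised to it before a ratio was taken, so a ratio against such a signal is a lower bound. A gene was measured when above the floor on at least 1 array, and called higher or lower at a ratio of at least 2-fold. As a yardstick of technical and isoform spread, the SD of a log2 ratio between probe sets of the same gene was 0.46 for signals of at most 128, 0.38 from 256 to 512 and 0.20 for those over 2048. It was taken over probe sets above the floor on both arrays and says nothing of the spread between cultures.

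The arrays bore out the ES cell label. All 11 ES cell markers were above the floor on both, with 0 at least 2-fold higher in Eed KO and 1 lower, Dppa4 at 3129 in Eed KO and 7304 in control. The core factors were within 2-fold, with Pou5f1 at 11352 in Eed KO and 12948 in control, Sox2 at 8531 in Eed KO and 11826 in control, and Nanog at 14393 in Eed KO and 8007 in control. The brighter of 2 Eed probe sets read 11456 in Eed KO and 10101 in control, and the other was under the floor, at 56.7 in Eed KO and 49.0 in control. They do not check the genotype, as no label says which part of the gene was disrupted. Markers of other cell types were also read. Of 22 measured fibroblast markers 17 were at least 2-fold higher, with a median log2 ratio of 1.49 and a summed signal over the 24 with a probe set of 39066 in Eed KO and 15060 in control, while Lum and Fap were under the floor on both arrays. Of 13 measured primitive endoderm markers 5 were higher and 1 lower, and of 9 trophectoderm markers 5 were higher and 0 lower, or 3 and 1 after equalising the array medians. Of 5 measured primitive streak markers 1, Eomes, was higher. Across all measured genes 10.8% were higher and 3.27% lower, or 6.35% and 7.53% after equalising the array medians. With that scaling 14 of 22 fibroblast markers were higher and 0 lower, and 4 of 12 primitive endoderm markers were higher and 1 lower. The marker lists share 0 genes with the Wnt pathway set, and their part in the results below was not tested.

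Of the 49 Wnt pathway genes, 33 were above the floor on both arrays, 6 on the Eed KO array only, 3 on the control array only and 7 on neither. In Eed KO, 12 were at least 2-fold higher (Wnt4, Wnt5a, Wnt6, Wnt9a, Wnt11, Fzd1, Fzd3, Fzd6, Dkk2, Dkk3, Sfrp5 and Rspo3), 2 were at least 2-fold lower (Fzd7 and Lef1) and 28 measured genes were within 2-fold. Across all 13794 measured genes 10.8% were higher and 3.27% lower, or 1483 and 451 genes, against 873 and 1034 after equalising the array medians. Under that scaling 7 Wnt pathway genes were higher and 2 lower. The 6 genes measured only in Eed KO could only be higher, and they supplied 2 of the 12 calls. Among the 33 genes above the floor on both arrays 10 were higher and 2 lower, beside 9.89% and 3.39% of all such genes, and the median log2 ratio was 0.30, beside 0.086 over all 11815 of them.

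The higher calls lay at low signal. All 12 were among the 34 measured genes whose mean signal was below 10 times the floor, which also held 1 of the lower calls, and in that range 14.8% of all measured genes were higher and 3.08% lower. Of the 8 genes with a mean signal at or above that limit (Wnt7b, Fzd5, Fzd7, Lrp6, Sfrp1, Ctnnb1, Axin1 and Tcf7l1) 0 were higher and 1, Fzd7, was lower, beside 5.1% and 3.53% of all genes in that range.

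**Figure D1:**
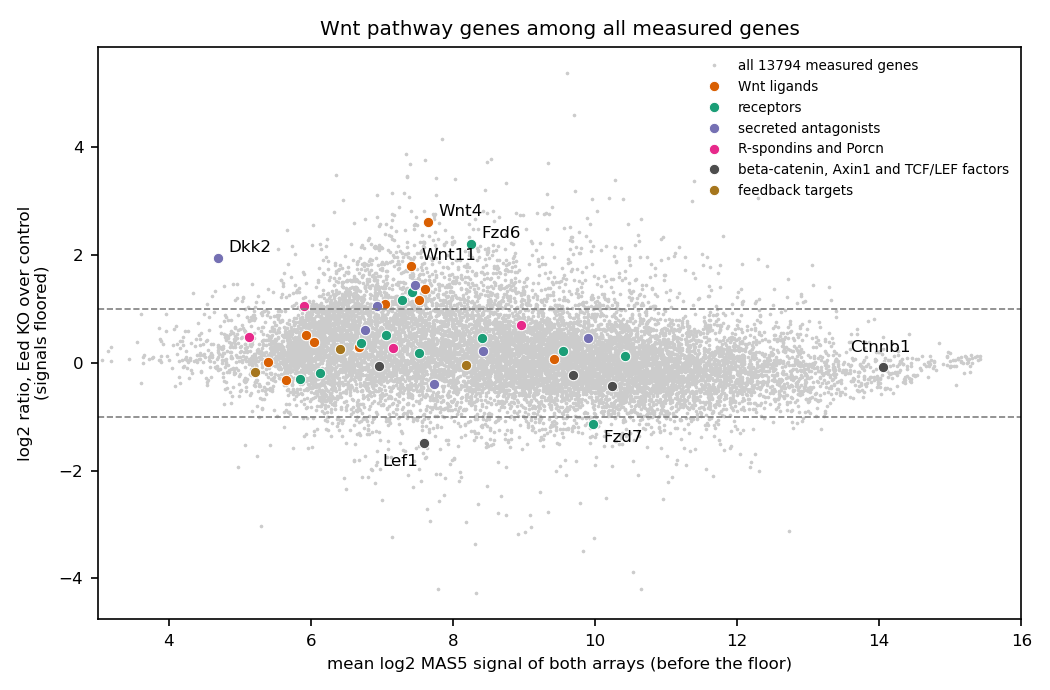
Log2 ratio of Eed KO over control (y axis, signals floored) against the mean log2 MAS5 signal of both arrays (x axis). Grey points are all 13794 measured genes, coloured points the 42 measured Wnt pathway genes by role, and dashed lines mark 2-fold. Wnt4 (2.61) and Fzd6 (2.21) lie highest among the coloured points, Lef1 (-1.48) and Fzd7 (-1.13) lowest, and Ctnnb1 lies near 0 at the right.

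Promoters are shown for the highest and lowest members that were above the floor on both arrays and had a promoter in the RefSeq table: Wnt4 and Wnt11, higher in Eed KO, and Fzd7 and Lef1, lower. Each is the 250 bases before the gene's most upstream listed start, 5′ to 3′ on the gene's strand, in RefSeq build GRCm38.p6, with CpG dinucleotides in capitals. CpG-rich promoters are, as background, where PRC2 is found in mouse ES cells.
Wnt4, chr4:137277385-137277634, plus strand: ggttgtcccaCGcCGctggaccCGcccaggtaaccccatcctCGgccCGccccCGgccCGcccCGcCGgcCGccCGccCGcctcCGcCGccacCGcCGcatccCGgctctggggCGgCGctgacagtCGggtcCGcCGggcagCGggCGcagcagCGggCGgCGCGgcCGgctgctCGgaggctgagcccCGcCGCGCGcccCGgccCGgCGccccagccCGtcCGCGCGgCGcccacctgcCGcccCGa
Wnt11, chr7:98834862-98835111, plus strand: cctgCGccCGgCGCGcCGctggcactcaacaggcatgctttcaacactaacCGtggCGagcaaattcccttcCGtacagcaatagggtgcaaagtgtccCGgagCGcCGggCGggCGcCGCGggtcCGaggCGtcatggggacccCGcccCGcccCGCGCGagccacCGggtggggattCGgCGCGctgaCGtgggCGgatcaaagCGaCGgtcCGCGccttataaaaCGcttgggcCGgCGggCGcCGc
Lef1, chr3:131110047-131110296, plus strand: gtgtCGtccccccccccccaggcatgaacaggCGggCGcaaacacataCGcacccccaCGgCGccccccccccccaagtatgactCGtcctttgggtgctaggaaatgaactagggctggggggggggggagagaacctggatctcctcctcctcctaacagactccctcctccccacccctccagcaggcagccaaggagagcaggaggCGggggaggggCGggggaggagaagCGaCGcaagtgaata
Fzd7, chr1:59481897-59482146, plus strand: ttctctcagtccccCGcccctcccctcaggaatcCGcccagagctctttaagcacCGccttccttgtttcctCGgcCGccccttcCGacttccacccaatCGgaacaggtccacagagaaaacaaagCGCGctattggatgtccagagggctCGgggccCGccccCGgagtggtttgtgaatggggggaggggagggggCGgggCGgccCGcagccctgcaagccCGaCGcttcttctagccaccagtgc

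Within these 250 bases Wnt4 had 44 CpG dinucleotides and Wnt11 37, while Fzd7 had 17 and Lef1 11. Over the table's windows, which run from 250 bases before to 50 after each start, 33 of the 50 genes, Tcf7 among them, had an entry. Their median ratio of observed to expected CpG was 0.789, beside 0.660 for the 14452 genes of the array with a window. That median was 0.754 for the 7 higher genes, 0.596 for the 2 lower and 0.814 for the 16 within 2-fold. Of the higher genes, Dkk2 at 0.499 and Sfrp5 at 0.622 lay below the lower gene Fzd7 at 0.727. Wnt4, Wnt6, Wnt9a, Wnt11 and Fzd1 lay above it. The TCF/LEF heptamers CTTTGAT and CTTTGAA, searched on both strands with overlaps counted, occurred in windows of 4 of the 33 genes (12.1%). This stood beside 8.08% of the 14452 and 9.88% of all genes with a window. Counted by window, a match lay in 9.52% of the 42 windows of the set, beside 8.65% of all 32851. The 4 genes were Sp5, Dkk1, Wnt11 and Wnt5b. In Wnt11 the match is the atcaaag that begins 51 bases before the start in the sequence above. A match describes the letters and does not show binding.

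Among the 11 measured ligands, Eed KO signals were at least 2-fold higher for 5, lower for 0 and within 2-fold for 6. After equalising the array medians 3 of 10 were higher and 0 lower. Across all measured genes 10.8% were higher and 3.27% lower as deposited, and 6.35% and 7.53% after equalising. Among all measured genes with a mean signal below 10 times the floor, 14.8% were higher as deposited. Wnt4, needed for kidney and ovary development, read 494.8 in Eed KO and 80.9 in control. It was 6.12-fold higher (log2 ratio 2.61), against an SD between probe sets of 0.47 at its signal, and stayed above 2-fold in all 9 alternatives of scaling, floor and probe set, the lowest log2 ratio being 1.26, when its probe sets were averaged. The dimmer Wnt4 probe set stayed under the floor, at 43.7 in Eed KO and 22.4 in control. Wnt11, a ligand of the beta-catenin-independent branch that guides cell movements in gastrulation, read 317.8 in Eed KO and 91.6 in control, 3.47-fold higher (1.79). With the floor raised to the 60th percentile, 168.2, it was at 0.92.

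Wnt5a, the best known beta-catenin-independent ligand, read 314.1 in Eed KO and 121.8 in control, 2.58-fold higher (1.37). A further Wnt5a probe set read 171.5 in Eed KO and 111.6 in control, a log2 ratio of 0.62, and the remaining pair were under the floor on both arrays. Wnt6, an epithelial ligand, read 275.0 in Eed KO and 122.3 in control, 2.25-fold higher. Wnt9a, which acts in joint formation, read 192.8 in Eed KO and 90.2 in control, 2.14-fold higher. Wnt6 and Wnt9a lie close to the limit of a call and were under 2-fold in 6 of the 9 alternatives each.

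Wnt7b, a ligand of lung and placenta development, hardly differed, at 702.5 in Eed KO and 669.6 in control, and the sign of its log2 ratio of 0.069 turned in 5 alternatives. A further Wnt7b probe set read 287.2 in Eed KO and 310.4 in control. Wnt7a, a ligand of limb patterning, read 113.8 in Eed KO and 92.6 in control (0.30, with the sign turned in 2 alternatives). Wnt1, required for the midbrain, Wnt2b, which acts in lung specification, and Wnt10a, which acts in teeth and skin, were above the floor only in Eed KO. They read 87.4, 80.6 and 62.1 there, against 42.6, 53.5 and 28.4 in control, and were at least 1.43-, 1.31- and 1.01-fold higher. Wnt8a, an early posterior ligand, went the other way at 33.2 in Eed KO, under the floor, and 76.1 in control.

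The other 6 ligands, Wnt2, Wnt3, Wnt3a, Wnt5b, Wnt10b and Wnt16, were under the floor on both arrays. Their signals lay between 0.8 and 58.8 in Eed KO and between 3.6 and 35.4 in control. Wnt3 and Wnt3a, the ligands of the primitive streak and early mesoderm, are thus among those with no usable signal in either sample. The median log2 ratio of the fibroblast markers on the same arrays was 1.49, and their part in the higher ligand signals was not tested.

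**Figure D2:**
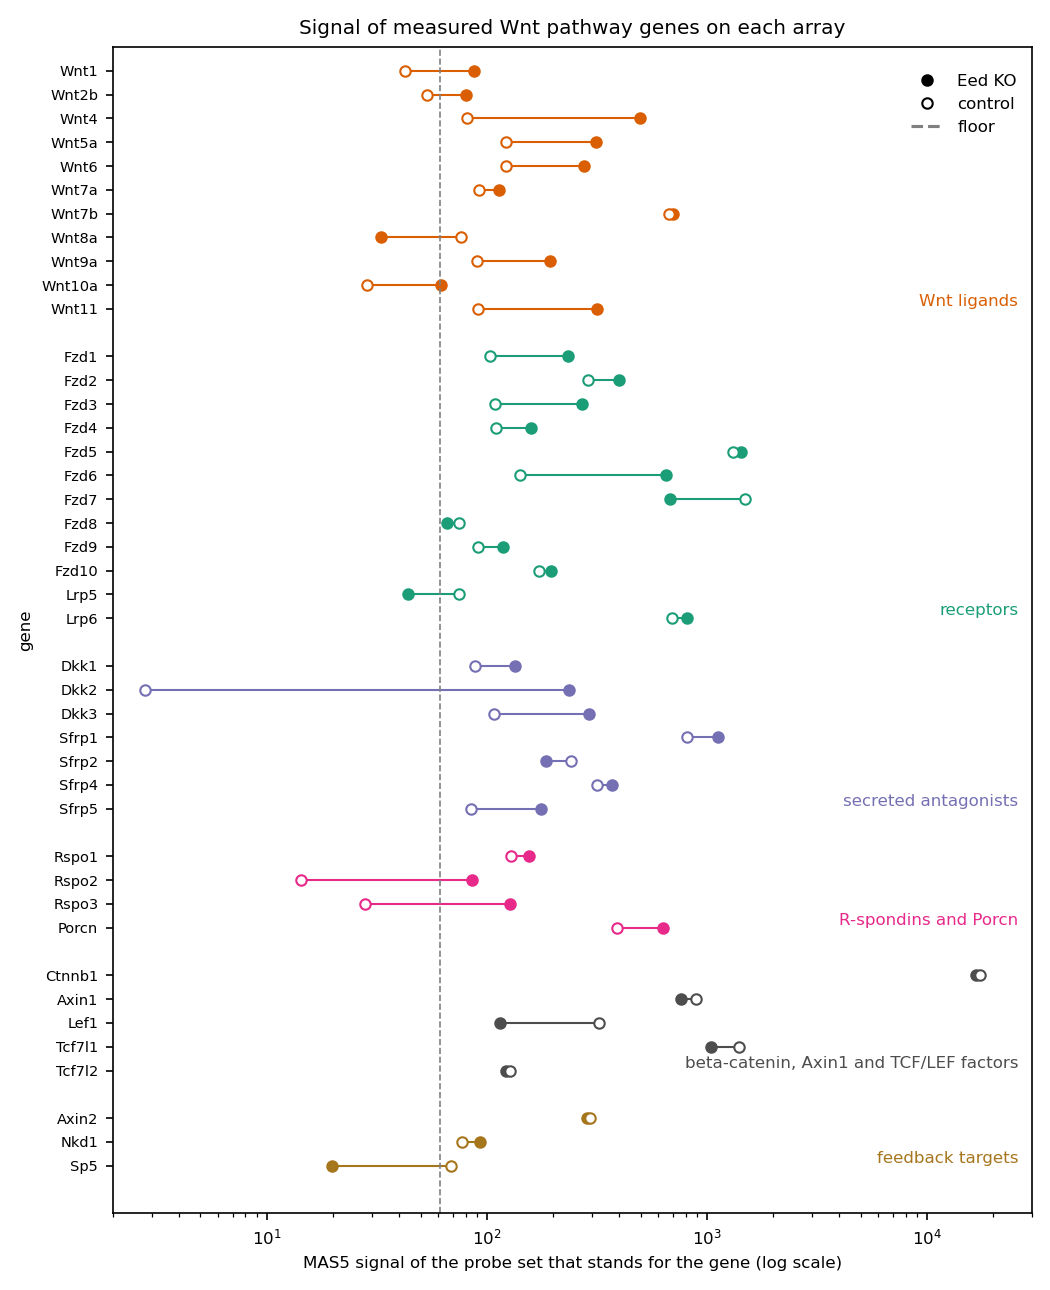
MAS5 signal (x axis, log scale) of the probe set standing for each of the 42 measured Wnt pathway genes (rows, grouped and coloured by role) on the Eed KO array (filled circles) and the control array (open circles). The dashed line is the floor of 61.3. Dkk2 spans the widest gap, at 236.7 in Eed KO and 2.8 in control, and Ctnnb1 stands far to the right with both circles nearly together.

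Among the 12 receptors, all measured, 3 were at least 2-fold higher in Eed KO and 1 lower, or 2 and 1 after equalising the array medians. The shares over all measured genes were 10.8% and 3.27%, and 6.35% and 7.53% after equalising. The median log2 ratio of the receptors was 0.30, and it was slightly below 0 (-0.0057) after equalising the array medians. Fzd6, a Frizzled of planar polarity in skin and hair, read 653.6 in Eed KO and 141.6 in control, 4.62-fold higher (2.21 on the log2 scale, against an SD of 0.38). A further Fzd6 probe set read 223.9 in Eed KO and 66.5 in control, a log2 ratio of 1.75, and the gene stayed above 2-fold in all 9 alternatives, down to 1.70. Fzd3, which acts with Fzd6 in planar polarity and guides axons, read 271.0 in Eed KO and 109.4 in control, 2.48-fold higher. Other measured Fzd3 probe sets had log2 ratios of 0.42 and 0.91. Fzd1 read 233.4 in Eed KO and 103.3 in control, 2.26-fold higher, but was under 2-fold in 6 alternatives.

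Fzd7, a Frizzled linked to Wnt responses of ES cells, was the only receptor called lower. Its main probe set read 680.7 in Eed KO and 1486 in control, 2.18-fold lower (log2 ratio -1.13, against an SD of 0.32). The call held in 8 of 9 alternatives. The other Fzd7 probe set, much dimmer, went the other way at 103.7 in Eed KO and 48.3 in control, where it was under the floor, and the mean over both probe sets gave -0.012.

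Fzd5, which acts in yolk sac vessels and the eye, read 1431 in Eed KO and 1313 in control (0.12, with the sign turned in 2 alternatives), while its other probe set read 654.4 in Eed KO and 347.9 in control (0.91). Fzd2, which acts in palate development, read 397.6 in Eed KO and 288.0 in control (0.47). Fzd4, the receptor of Norrin in the retina, read 159.2 in Eed KO and 110.6 in control (0.53), and 134.8 in Eed KO and 61.5 in control with another probe set (1.13). Fzd8, Fzd9 and Fzd10 had log2 ratios of -0.18, 0.37 and 0.18, the last with the sign turned in 3 alternatives. The co-receptor gene Lrp6 read 813.3 in Eed KO and 693.4 in control (0.23), and its second probe set had a log2 ratio of 0.59. Lrp5 read 43.9 in Eed KO, under the floor, and 74.9 in control.

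Of the 7 measured secreted antagonists, 3 were at least 2-fold higher in Eed KO and 0 lower, or 2 and 0 after equalising the array medians. Over all measured genes the shares were 10.8% and 3.27%, and 6.35% and 7.53% after equalising. Dkk2, a Dickkopf protein that binds Lrp5 and Lrp6, read 236.7 in Eed KO and 2.8 in control. As the control was under the floor the ratio is at least 3.86-fold (log2 ratio 1.95), and the highest floor lowered it to 0.49. Dkk3, a divergent Dickkopf, read 292.1 in Eed KO and 107.5 in control, 2.72-fold higher (1.44), and its second probe set read 178.4 in Eed KO and 44.2 in control, a log2 ratio of 1.54. Sfrp5, a Frizzled-related decoy of the foregut endoderm, read 176.3 in Eed KO and 84.9 in control, 2.08-fold higher, and its second probe set had a log2 ratio of 0.91. Sfrp5 was under 2-fold in 6 alternatives. Dkk1, which antagonises Wnt signalling in head formation, read 134.2 in Eed KO and 88.2 in control (0.61).

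Sfrp1, a decoy that binds Wnt proteins, depended on the probe set read. The brightest probe set read 1121 in Eed KO and 813.8 in control, a log2 ratio of 0.46. The 4 others read 956.9, 916.3, 566.8 and 359.9 in Eed KO, against 386.0, 305.8, 391.3 and 124.8 in control, with log2 ratios of 1.31, 1.58, 0.53 and 1.53 in that order. All 5 were higher in Eed KO, 3 of them by at least 2-fold, and the mean over all 5 was 1.08. Sfrp2, another decoy, read 185.4 in Eed KO and 242.2 in control (-0.39). Sfrp4, of the same family, read 371.6 in Eed KO and 317.3 in control (0.23, with the sign turned in 1 alternative). Wif1, which binds Wnt proteins directly, was under the floor, at 38.3 in Eed KO and 11.6 in control. Fibroblast markers were higher on the same array (median log2 ratio 1.49), and their part in the antagonist signals was not tested.

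R-spondins raise the amount of Frizzled at the cell surface by engaging Lgr receptors and the ligases Znrf3 and Rnf43. Rspo3 read 127.4 in Eed KO and 28.0 in control, under the floor, so it was at least 2.08-fold higher, just over the limit and under it in 5 alternatives. Rspo2 read 85.8 in Eed KO and 14.3 in control (at least 1.40-fold), and Rspo1 156.1 in Eed KO and 129.0 in control (0.28, with the sign turned in 2 alternatives). Porcn, which attaches the lipid that Wnt proteins need for secretion, read 631.6 in Eed KO and 388.4 in control. At 1.63-fold it was, of the 42 measured genes of the set, the nearest below the limit of a call.

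Inside the cell, the shared components differed little. Ctnnb1, which encodes beta-catenin, read 16656 in Eed KO and 17496 in control with its brightest probe set (-0.071, with the sign turned after quantile normalization, at 0.025), and its other probe sets had log2 ratios of -0.14 and -0.17. Axin1, the scaffold of the degradation complex, read 765.5 in Eed KO and 893.7 in control (-0.22), with -0.32 for its second probe set. Tcf7l1, the TCF factor that represses pluripotency genes in ES cells, read 1041 in Eed KO and 1400 in control (-0.43), while its second probe set read 1057 in Eed KO and 975.5 in control (0.12). Tcf7l2 read 121.8 in Eed KO and 127.3 in control (-0.064, with the sign turned in 1 alternative, to 0.44 as the mean over probe sets). A further Tcf7l2 probe set read 106.8 in Eed KO and 82.7 in control (0.37). Another read 85.3 in Eed KO and 18.2 in control, under the floor (at least 0.48).

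Lef1, a TCF/LEF factor that activates targets with beta-catenin, was the exception. It read 115.2 in Eed KO and 321.7 in control, 2.79-fold lower (-1.48, against an SD of 0.47). The second Lef1 probe set read 57.9 in Eed KO, under the floor, and 71.8 in control, a log2 ratio of -0.23. Lef1 was under 2-fold with the highest floor (-0.94) and when its probe sets were averaged (-0.90), and its direction was the same in all 9 alternatives.

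None of the 3 feedback targets reached 2-fold, where across all measured genes 10.8% were higher and 3.27% lower. Nkd1 at 77.5 and Sp5 at 69.0 in control lay too near the floor of 61.3 to be called lower. Axin2, a widely used readout of canonical signalling that rebuilds the degradation complex, read 285.4 in Eed KO and 294.1 in control (-0.043, with the sign turned to 0.28 as the mean over probe sets), and its dimmer probe set read 110.0 in Eed KO and 72.4 in control (0.60). Nkd1, which binds Dishevelled, read 93.1 in Eed KO and 77.5 in control (0.26, with the sign turned in 2 alternatives). Sp5, a zinc finger factor, read 19.8 in Eed KO, under the floor, and 69.0 in control. With the floor at the 25th percentile Sp5 and Wnt8a were called lower, at log2 ratios of -1.22 and -1.20. At the same floor Rspo2, Wnt10a and Wnt1 were called higher, at 1.53, 1.06 and 1.04. With that floor the shares over all measured genes also rose, to 14% higher and 4.27% lower.

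**Figure D3:**
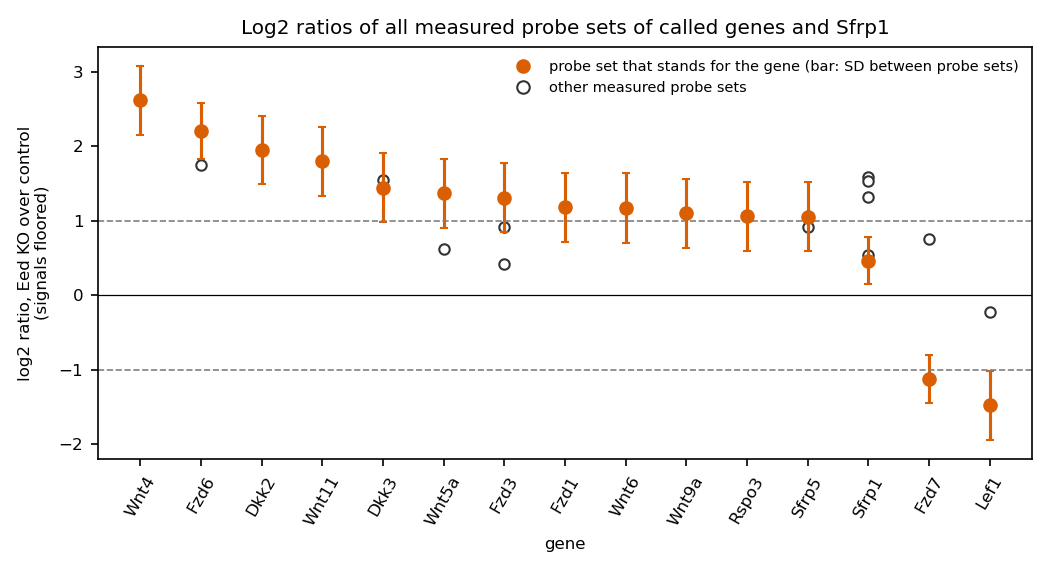
Log2 ratio of Eed KO over control (y axis) for every measured probe set of the 14 called genes and Sfrp1 (x axis). Filled circles are the probe sets standing for the gene, with bars of 1 SD between probe sets at that signal, open circles are further probe sets, and dashed lines mark 2-fold. The second probe sets of Fzd6 (1.75) and Dkk3 (1.54) lie beside the filled circles, and that of Fzd7 (0.76) lies on the other side of 0.

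Across the 12 higher genes, 5 had further measured probe sets, and all 6 of these had a log2 ratio above 0, with 2 at or above 2-fold. The further probe sets of Dkk3 and Sfrp5 were above the floor only in Eed KO, so they could only be higher. That of Dkk3 is 1 of the 2 at or above 2-fold. Probe sets under the floor on both arrays were not counted. Of the 2 lower genes, each had 1 further measured probe set, of which 1 went the same way. That of Lef1 was above the floor only in control and could only be lower. That of Fzd7 was above it only in Eed KO and could only be higher. Neither therefore checks the direction of its gene. Only Wnt4 and Fzd6 were called in all 9 alternatives. Dkk2, Dkk3 and Wnt11 were called in all but the highest floor.

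**Figure D4:**
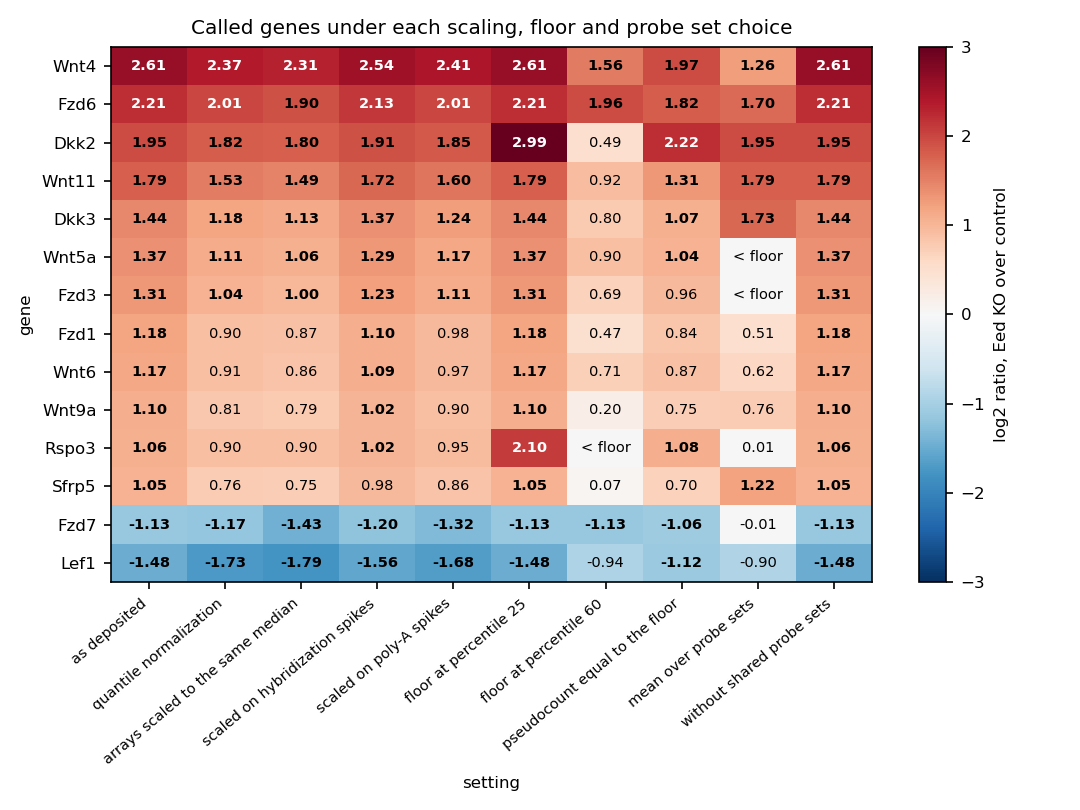
Log2 ratio of Eed KO over control (colour and printed value, bold at 2-fold or more) for the 14 called genes (rows) as deposited and under 9 alternatives (columns). A cell reading < floor had both signals under the floor. Wnt4 and Fzd6 are bold in every column, and no called gene changes sign.

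Other genes of the pathway were read from further lists. Of 29 measured intracellular pathway genes 0 were higher and 1 was lower by 2-fold or more. After equalising the array medians 0 of 30 were higher and 2 lower, beside 3.27% of all measured genes lower as deposited and 7.53% after equalising. The median log2 ratio of the 29 was 0.040 and turned negative under 3 scalings, down to -0.25. The list includes Axin1 and Ctnnb1, described above. The lower gene was Tle4, a Groucho corepressor that TCF/LEF factors recruit, at 1566 in Eed KO and 4748 in control. It was 3.03-fold lower (-1.60), its other probe sets had log2 ratios of -1.79 and -1.08, and the call held in all 9 alternatives. Ctbp2, a corepressor, Senp2, a SUMO protease, and Tnks2, a tankyrase that controls Axin, had the next largest differences, at -0.73, -0.69 and -0.67, all within 2-fold as deposited, and Ctbp2 was at -1.04 after equalising the array medians.

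Of 16 measured extracellular and membrane regulators outside the set, 4 were higher and 0 lower, or 3 and 1 after equalising the array medians. Over all measured genes the shares were 10.8% higher and 3.27% lower as deposited, and 6.35% and 7.53% after equalising. Wls, the carrier that brings Wnt proteins to the cell surface, read 714.9 in Eed KO and 184.1 in control, 3.88-fold higher (1.96), with 1.63 and 1.81 for its other measured probe sets. It was under 2-fold only as the mean over probe sets (0.60). Dkkl1, a Dickkopf-like protein of male germ cells, read 267.0 in Eed KO and 18.5 in control, at least 4.36-fold higher. The glypican genes Gpc6 and Gpc3, which encode cell surface proteoglycans, had log2 ratios of 1.38 and 1.08, and were under 2-fold in 3 and 4 alternatives.

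Of 17 measured planar polarity and beta-catenin-independent genes 3 were higher and 0 lower, against 1 and 0 after quantile normalization, beside 10.8% of all measured genes higher as deposited and 7.76% after quantile normalization. For higher calls the list lay above the share of the array as deposited and below it after quantile normalization, so no difference is read from it. The 3 were Invs, a ciliary protein (162.5 in Eed KO and 46.9 in control, under the floor), Prickle2 (1.07) and Daam1, a formin that binds Dishevelled (1.05). Prickle1 was just short of the limit at 0.98. Prickle2 and Daam1 were under 2-fold in 6 alternatives each.

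Of 16 measured targets of beta-catenin and TCF outside the set, 4 were higher and 1 lower, or 4 and 3 after equalising the array medians. The shares over all measured genes were 10.8% higher and 3.27% lower as deposited, and 6.35% and 7.53% after equalising. Tbx3, a T-box factor of naive pluripotency, read 4038 in Eed KO and 630.1 in control, 6.41-fold higher. The adhesion receptor gene Cd44 (1.91), the cyclin gene Ccnd2 (1.36) and Eomes (1.32), a T-box factor of the primitive streak and trophectoderm, were the others. Myc, named after its value was seen, was the lower gene, at 580.5 in Eed KO and 1205 in control (-1.05). Of the 7 genes taken as repressed by Tcf7l1 in ES cells, Tbx3, already counted above, was higher and 6 were within 2-fold. The 6 were led by Nanog at 0.85, Tfcp2l1 at 0.68 and Nr0b1 at -0.58. Nanog and Esrrb are also among the ES cell markers. As the mean over probe sets Tfcp2l1 was at -0.37.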

How the data were processed

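The deposited values are MAS5 signal intensities per probe set on a linear scale, per the submitters' processing notes, which give no version. They came already scaled: with 2% of probe sets trimmed at each end, the mean was 500.00 on both arrays. No detection calls, standard errors or cell files were used, and no genome build enters the values. Groups were taken from the sample titles.

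Of the probe sets, 34945 had 1 gene symbol in the platform annotation, 932 had several, 9160 had none there and 64 were controls. All 49 genes matched the RefSeq table by gene ID. Ratios, floors and calls were computed in Python 3.11.15 with numpy 2.4.6 and pandas 2.3.3, on the whole table, and tested on simulated data. MAS5 summarises each array separately, so dim signals are noisy, and the number of arrays limits the precision.

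The members and lists were chosen with earlier results of these data known. Every member is accounted for, and up to 4 genes with the largest ratio were named from each further list, and Myc in addition after its value was seen. Alternatives were scaling by quantile normalization, by array medians and by hybridization or poly-A spikes, a floor at percentile 25 or 60, a pseudocount equal to the floor, averaging a gene's probe sets, omitting shared probe sets (suffix _x_at or _s_at), and call limits of 1.5-fold and 3-fold. A rule that a gene is measured by the mean of both signals was added after seeing the data. Promoter sequences are RefSeq's, build GRCm38.p6.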

Additional observations from a re-analysis of the deposited data

How the results depend on the processing

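With 1 array per group no replicate could be left out, and no paired analysis was possible because there was 1 array in each group. The count of 12 Wnt pathway genes at least 2-fold higher was 7 after quantile normalization and after equalising the array medians. It was also 7 with scaling on the poly-A spikes, with a pseudocount and when probe sets were averaged. With the floor at the 60th percentile (26 genes measured) it was 2, and at 3-fold it was 4. In the order given, 7.76%, 6.35%, 7.56%, 7.87%, 10.2%, 7.82% and 3.53% of all measured genes were higher, beside 10.8% as deposited. The count was 15 with the floor at the 25th percentile (46 genes measured) and 14 at 1.5-fold. It was 11 with scaling on the hybridization spikes and 12 without shared probe sets. Here 14%, 23.3%, 9.46% and 10.6% of all measured genes were higher, in that order. The count of 2 lower genes was 4 with the floor at the 25th percentile, 1 at the 60th, 0 when probe sets were averaged and 0 at 3-fold. The median log2 ratio of 0.34 over the 42 measured genes, beside 0.12 over all measured genes, was 0.066 after equalising the array medians, where that of all genes was -0.16. Under the other alternatives of scaling, floor and probe set it lay between 0.14 and 0.38. Measured by the mean of both signals, 10 of 34 genes were higher and 2 lower, beside 11.3% and 3.49% of all genes so measured. No called gene changed direction in any of the 9 alternatives of scaling, floor and probe set, although Wnt5a, Fzd3 and Rspo3 were under the floor on both arrays in 1 of them each.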

Other observations

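Several Wnt genes lie next to each other in the RefSeq annotation with no coding gene between them, and the values of such neighbours were set side by side. Wnt6 read 275.0 in Eed KO and 122.3 in control, and its neighbour Wnt10a 62.1 in Eed KO and 28.4 in control, where it was under the floor. Wnt9a read 192.8 in Eed KO and 90.2 in control, while its neighbour Wnt3a read 58.8 in Eed KO and 35.4 in control, both under the floor. Wnt1 read 87.4 in Eed KO and 42.6 in control, and its neighbour Wnt10b 25.8 in Eed KO and 11.5 in control, both under the floor. Wnt3 and its neighbour Wnt9b, which is outside the set, were both under the floor, at 0.8 and 20.3 in Eed KO and 30.4 and 16.7 in control. In these 4 neighbour pairs, Wnt6 and Wnt9a were the genes at least 2-fold higher.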
